A study of Oryza sativa Indica Group with 6 samples.

Results

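Among the 12992 described probes of the rice array, out of 21495 gene probes, alternative oxidase and hemoglobin are each represented by a pair. These 4 probes, chosen by the cDNA name that the array files give each probe, are described here. They are AOX1A (AK064040) and AOX1b (AK107376), whose cDNAs are described as the rice alternative oxidases of those names, HB1 (AK064054), described as rice hemoglobin 1, and AK073898, whose description names the wheat hemoglobin Hb2 and which is called Hb2-like below. The series compared leaves of 2 indica rice genotypes, FR13A, which the submitters call submergence tolerant, and IR24, which they call susceptible. Plants grew in growth chambers and were put under water in clear plastic bags at 14 days after sowing.

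FR13A and IR24 RNA from plants of the same treatment was hybridised together on each of 6 two-colour arrays, 2 per time: plants under water for 15 min, harvested at 14 days, plants under water for 24 h, harvested at 15 days, and constitutive plants, which had no treatment and were harvested at 14 days. FR13A was in Cy5 on replicate 1 of each time and in Cy3 on replicate 2, with IR24 in the other dye. No unsubmerged plants of 15 days are among the groups, so time under water and a day of age cannot be told apart, and the labels do not give the hour of harvest. Since the labels do not say that replicates came from separate plants, p-values measure only the spread between these samples, and the number of arrays limits their precision. Between 81.8% and 92.7% of gene probes were well above background in FR13A channels and between 87.3% and 95.3% in IR24 channels. Of 36 probes for leaf markers (small subunit of Rubisco, chlorophyll-binding proteins and the like), 34 were well above background in all 12 channels. Their median log2 level was 12.51, against 7.997 for all probes.

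Alternative oxidase lies in the inner mitochondrial membrane and passes electrons from ubiquinol straight to oxygen, bypassing complex III and cytochrome c oxidase, so that electrons flow with less proton pumping and less formation of reactive oxygen species. Nonsymbiotic plant hemoglobins bind oxygen very tightly. In their oxygenated form they turn nitric oxide into nitrate, and the ferric hemoglobin that results is reduced again, with monodehydroascorbate reductase among the enzymes able to do so. In plants short of oxygen, nitrate reductase is a main source of the nitrite from which nitric oxide is made, and hemoglobin genes of several plants are known to be induced by low oxygen.

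In FR13A leaves, transcripts of AOX1A, AOX1b and Hb2-like were lower after 24 h under water than in constitutive plants, at 0.456, 0.473 and 0.478 of the constitutive level. They were also lower than after 15 min, at 0.394, 0.381 and 0.425 of the 15 min level. In IR24 leaves both alternative oxidase transcripts were lower at 24 h than at 15 min, at 0.58 of that level for AOX1A and 0.511 for AOX1b, but no gene of the 4 passed the test against constitutive plants. Constitutive FR13A leaves held more of both alternative oxidase transcripts than constitutive IR24 leaves, 1.65-fold for AOX1A and 1.97-fold for AOX1b. At 24 h neither differed detectably between the genotypes. HB1, whose spot lay close to background, passed none of the 13 comparisons as processed here.

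The levels given below are log2 intensities of each genotype's own channel after background correction and normalisation, and they compare samples for 1 probe but not probes with each other. Tests across times within a genotype came from a limma fit to all 12 channels that allows for the correlation between channels of 1 spot. Tests between genotypes came from a limma fit to the 6 within-array ratios. A difference was called where its p-value, adjusted by Benjamini-Hochberg over all probes of the fit, was under 0.05. Since the RNA is from whole leaf tissue, fewer cells of a type and less RNA per cell cannot be told apart.

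AOX1A is the alternative oxidase form usually described as stress-inducible in plants. In FR13A its log2 level was 8.77 and 8.57 on the constitutive arrays, 8.63 and 9.13 at 15 min, and 7.47 and 7.60 at 24 h. In IR24 its level was 8.12 and 7.77 on the constitutive arrays, 8.41 and 8.47 at 15 min, and 7.72 and 7.58 at 24 h. Both 24 h arrays were below both arrays of each earlier time in either genotype, while in FR13A the 15 min arrays overlapped with the constitutive ones. In FR13A the change at 24 h was -1.13 against constitutive (log2, SE 0.19, limma adjusted p = 0.00594) and -1.34 against 15 min (SE 0.19, adjusted p = 0.00234). In IR24 the change at 24 h was -0.79 against 15 min (SE 0.19, adjusted p = 0.0316) and -0.29 against constitutive, which did not pass (95% interval -0.73 to 0.14, adjusted p = 0.459). The fall against constitutive in FR13A did not pass without constitutive replicate 1 or without 24 h replicate 1, and the fall against 15 min in IR24 did not pass without either constitutive array, either 24 h array or 15 min replicate 2. The mean levels ran, from the highest down, FR13A at 15 min (8.88), FR13A constitutive (8.67), IR24 at 15 min (8.44), IR24 constitutive (7.95), IR24 at 24 h (7.65) and FR13A at 24 h (7.54). The first pair and the last pair of this order overlapped between arrays.

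AOX1b, a second alternative oxidase gene, showed a like course. In FR13A its log2 level was 8.36 on both constitutive arrays, 8.37 and 8.98 at 15 min, and 7.27 and 7.30 at 24 h. In IR24 its level was 7.44 and 7.34 on the constitutive arrays, 8.04 and 8.34 at 15 min, and 7.31 and 7.13 at 24 h. The IR24 constitutive level thus lay close to the 24 h level of either genotype, and the FR13A constitutive level lay within 0.01 of the lower FR13A array at 15 min. AOX1b changed in FR13A by -1.08 at 24 h against constitutive (SE 0.19, limma adjusted p = 0.00637) and by -1.39 against 15 min (SE 0.19, adjusted p = 0.00167). In IR24 it changed by -0.97 at 24 h against 15 min (SE 0.19, adjusted p = 0.0104) and differed from constitutive by -0.17, which did not pass (95% interval -0.59 to 0.25, adjusted p = 0.721). At 15 min against constitutive both IR24 arrays were higher, by 0.80 on average (95% interval 0.38 to 1.22), which missed the threshold after adjustment over all probes (adjusted p = 0.0734). The 24 h fall against constitutive in FR13A did not pass when any 1 of the 4 arrays compared was left out, and the 24 h fall against 15 min in IR24 did not pass without either 24 h array. Mean levels ran from FR13A at 15 min (8.67) through FR13A constitutive (8.36), IR24 at 15 min (8.19), IR24 constitutive (7.39) and FR13A at 24 h (7.28) to IR24 at 24 h (7.22), with overlap between arrays only in the last pair.

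The probes of AOX1A and AOX1b report on close relatives, and whether either also binds the other's transcript was not tested. Pearson's r between their levels over the 12 channels was 0.97, a description of values that share arrays, RNA samples and normalisation. By the same measure over 9860 described probes that were well above background in all 12 channels, AOX1b was the probe most like AOX1A, followed by AK101291, described after an Arabidopsis phospholipase C (r = 0.968), and AK068993, described after a wheat phenylalanine ammonia-lyase (r = 0.967). AOX1b was followed most closely by AOX1A, by AK068337, described as the rice putative transcription factor RPR1 (r = 0.971), and by AK109735, described after a spinach phosphoribosyl pyrophosphate synthase (r = 0.963).

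HB1 encodes a nonsymbiotic hemoglobin of rice. In FR13A its log2 level was 7.16 and 7.53 on the constitutive arrays, 7.66 and 6.27 at 15 min, and 6.27 and 6.01 at 24 h. In IR24 its level was 6.68 and 6.64 on the constitutive arrays, 7.15 and 6.21 at 15 min, and 6.33 and 6.05 at 24 h. At 15 min replicate 1 was high and replicate 2 low in both genotypes, so the 15 min arrays spanned the constitutive ones, while both 24 h arrays lay below both constitutive arrays in either genotype. The differences at 24 h against constitutive were -1.21 in FR13A (95% interval -2.03 to -0.38, limma adjusted p = 0.0728) and -0.47 in IR24 (95% interval -1.30 to 0.35, adjusted p = 0.553), and neither passed. Against 15 min they were -0.82 in FR13A (SE 0.37, adjusted p = 0.19) and -0.49 in IR24 (SE 0.37, adjusted p = 0.475), and neither passed. Without 15 min replicate 2 both differences against 15 min passed, and with the median of A per array in place of Aquantile the FR13A one did. The FR13A difference at 24 h against constitutive passed without 15 min replicate 1 or 15 min replicate 2. Those arrays are not in that difference but carry the spread of the fit. The spot was well above background in 11 of 12 channels, the exception being FR13A at 24 h on replicate 2, and its net signal over background was between 15.4 and 156 intensity units with a median of 37.4. The background correction adds 50 units to every spot, which pulls differences of so dim a spot towards 0. With no added offset the FR13A difference at 24 h against constitutive was -2.51 (SE 0.66, limma adjusted p = 0.04). With the scanner software's processed signals it was -3.06 (SE 0.76, limma adjusted p = 0.0323), so the size of this difference depended on the processing. Mean levels ran from FR13A constitutive (7.35), FR13A at 15 min (6.96), IR24 at 15 min (6.68) and IR24 constitutive (6.66) to IR24 at 24 h (6.19) and FR13A at 24 h (6.14). Among these neighbours, only IR24 constitutive and IR24 at 24 h did not overlap between arrays.

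Hb2-like is named after a hemoglobin of wheat, and which rice gene the probe measures is not given in the sources used here. In FR13A its log2 level was 10.31 and 10.11 on the constitutive arrays, 10.08 and 10.68 at 15 min, and 9.07 and 9.22 at 24 h. In IR24 its level was 10.47 and 9.79 on the constitutive arrays, 10.50 and 10.51 at 15 min, and 9.71 and 9.55 at 24 h. In each genotype the 24 h arrays were the lowest of the 6, and the FR13A arrays at 24 h were below the IR24 ones. Hb2-like changed in FR13A by -1.07 at 24 h against constitutive (SE 0.26, limma adjusted p = 0.0306) and by -1.24 against 15 min (SE 0.26, adjusted p = 0.0156). In IR24 the differences at 24 h were -0.50 against constitutive (95% interval -1.08 to 0.08, adjusted p = 0.324) and -0.88 against 15 min (95% interval -1.46 to -0.29, adjusted p = 0.0665), and neither passed. The difference against 15 min passed with scan day as a block (adjusted p = 0.0446) and, at -0.998, with global median centring in place of loess (adjusted p = 0.042). The FR13A fall against constitutive did not pass when any 1 of the 4 arrays compared was left out, and the fall against 15 min did not pass without 15 min replicate 2 or either 24 h array. Mean levels ran from IR24 at 15 min (10.51) and FR13A at 15 min (10.38) through FR13A constitutive (10.21) and IR24 constitutive (10.13) to IR24 at 24 h (9.63) and FR13A at 24 h (9.14). Only the last 2 steps of this order were without overlap between arrays.

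**Figure D1:**
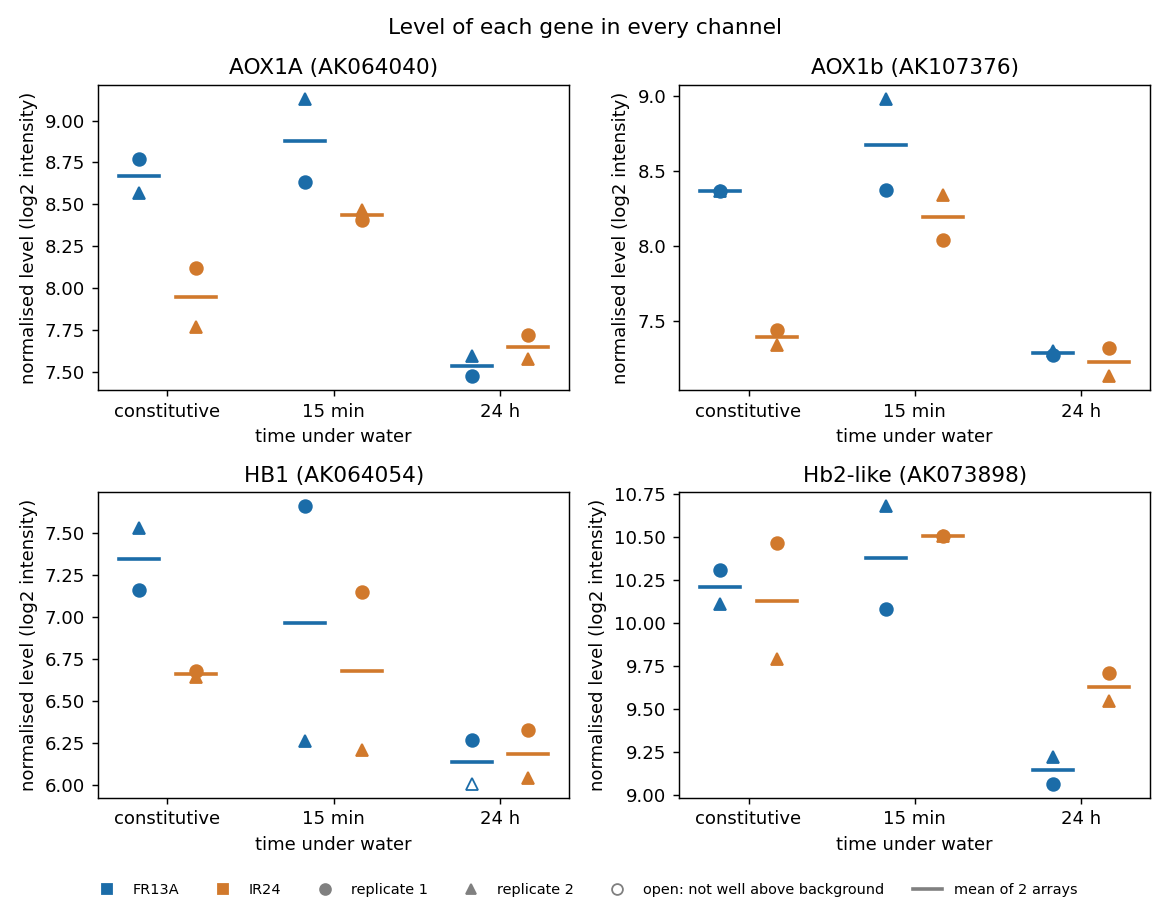
Level of AOX1A, AOX1b, HB1 and Hb2-like in every channel, as log2 intensity on the vertical axis against time under water, with FR13A left of IR24, a circle for replicate 1, a triangle for replicate 2 and a bar for the mean of 2 arrays. Each panel has its own vertical axis. The 24 h points are the lowest of their genotype for AOX1A, AOX1b and Hb2-like, and HB1 at 15 min is split between replicates in both genotypes, with replicate 2 at the height of the 24 h points.

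Counted over the 4 genes, 3 were called at 24 h against constitutive in FR13A, all lower, where 9.93% of all probes were called and 5.77% were called lower. Against 15 min, 3 of 4 were called in FR13A, where 11% of all probes were called and 7.03% were called lower, and 2 of 4 in IR24, where 9.94% were called and 6.43% were called lower. At 24 h against constitutive in IR24, 0 of 4 were called, with unadjusted p-values between 0.0849 and 0.395, where 8.91% of all probes were called. At 15 min against constitutive, 0 of 4 were called in FR13A, where 1.59% of all probes were called, and 0 of 4 in IR24, where 2.09% were called. There the unadjusted p-values were between 0.129 and 0.527 in FR13A and between 0.0018 and 0.962 in IR24. The FR13A differences at 15 min were 0.21 for AOX1A, 0.31 for AOX1b, -0.38 for HB1 and 0.17 for Hb2-like. The IR24 differences at 15 min were 0.49 for AOX1A, 0.80 for AOX1b, 0.02 for HB1 and 0.38 for Hb2-like. Those at 15 min in IR24 that were under the threshold before adjustment were of AOX1A (0.0299) and AOX1b (0.0018). Both 24 h arrays were below both constitutive arrays for 4 of 4 genes in each genotype, as was the case for 27.4% of all probes in FR13A and 25.7% in IR24. Both were below both 15 min arrays for 3 of 4 genes in each genotype, HB1 being the exception, as for 30% of all probes in FR13A and 29% in IR24. The comparisons of 24 h with constitutive and with 15 min share the 24 h arrays and are not independent of each other.

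The median change of all probes lay between -0.00886 and 0.0111 in each of these 6 comparisons, which the normalisation sets close to 0. With the median of A per array in place of Aquantile it lay between -0.13 and 0.08. A shift common to all probes was not tested. The plot of changes within each genotype sets the intervals side by side.

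**Figure D2:**
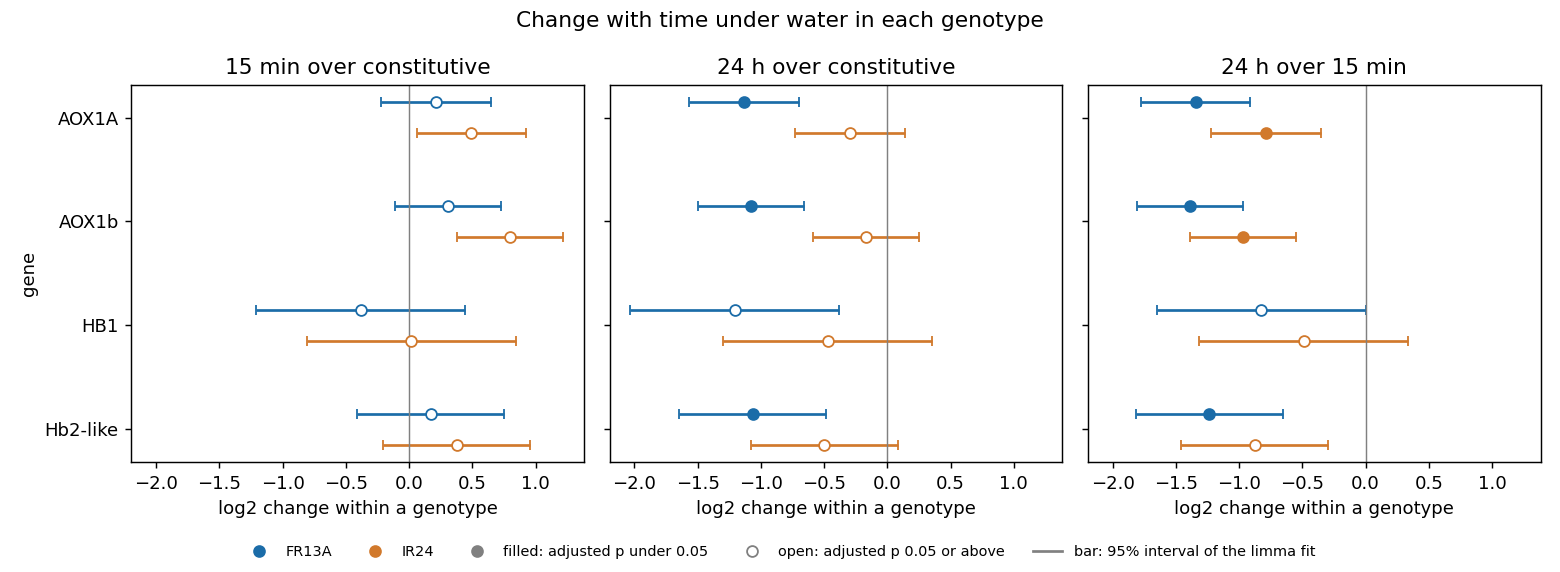
Change of each gene within FR13A (upper point of each gene) and IR24 (lower point) between times, as a log2 difference on the horizontal axis with its 95% interval, where filled points had an adjusted p under 0.05. At 24 h every point lies left of 0, and FR13A is farther left than IR24 for all 4 genes.

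Arrays were scanned on 3 days, which cross the times only in part, since constitutive replicate 2 was the only array of the first day. A scan-day block fits that array by its own term. Differences from constitutive with that block therefore rest on constitutive replicate 1. On the third day constitutive replicate 1, 15 min replicate 2 and 24 h replicate 2 were scanned, and on the second day the replicate 1 arrays of 15 min and 24 h. Within the third day the FR13A difference between 24 h and 15 min was -1.53 for AOX1A, -1.68 for AOX1b, -0.26 for HB1 and -1.46 for Hb2-like. Within the second day it was -1.16 for AOX1A, -1.10 for AOX1b, -1.39 for HB1 and -1.02 for Hb2-like. In IR24 the same difference was -0.89, -1.21, -0.16 and -0.96 in that gene order on the third day, and -0.68, -0.72, -0.82 and -0.79 on the second day. All of these differences were below 0, and HB1 was the gene whose size differed most between days. Both genotypes lie on the same arrays, so their differences are not separate observations. The share of all probes that were below 0 in each of these differences is not given here. Between 24 h and constitutive only the third day gives a value, from arrays of opposite dye, which was -1.17 in FR13A and -0.54 in IR24 for AOX1A, -1.06 and -0.31 for AOX1b, -1.15 and -0.63 for HB1, and -1.09 and -0.92 for Hb2-like. With scan day as a block in the fit, the FR13A falls at 24 h against constitutive were -1.20 for AOX1A (limma adjusted p = 0.0157) and -1.21 for Hb2-like (adjusted p = 0.026), while AOX1b at -1.01 did not pass (adjusted p = 0.0757). The AOX1b fall at 24 h against 15 min in IR24 also did not pass with that block (adjusted p = 0.0549), whereas Hb2-like passed in the same comparison (-0.88, adjusted p = 0.0446).

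Markers of other tissues were examined beside these changes. The summed level of 9 root-marker probes, 4 of them well above background in all channels, was 12.42 to 12.83 on the log2 scale in FR13A at 24 h, against 11.76 to 11.85 in constitutive FR13A, and 12.75 to 13.30 in IR24 at 24 h, against 12.21 to 12.48 in constitutive IR24. Such sums weigh bright probes most. Of 8 root-marker probes tested at 24 h against constitutive, 1 was called higher in FR13A, and 1 higher and 1 lower in IR24. Their median change was 0.16 in FR13A and -0.00048 in IR24, where 9.93% and 8.91% of all probes were called. For 11 seed-storage probes, 2 of which were well above background in no channel, the sum was 10.68 to 10.91 in FR13A at 24 h, against 10.42 in constitutive FR13A, and 10.63 to 10.76 in IR24 at 24 h, against 10.34 to 10.46 in constitutive IR24. Of 9 seed-storage probes tested at 24 h against constitutive, 1 was called higher in each genotype. The 9 pollen probes summed to 12.17 to 12.22 in FR13A at 24 h, against 12.13 to 12.23 in constitutive FR13A, and to 11.89 to 12.08 in IR24 at 24 h, against 11.70 to 11.93 in constitutive IR24. At 15 min the pollen sum spanned 11.62 to 13.70 in FR13A and 11.49 to 13.21 in IR24. Of 7 pollen probes tested against constitutive, 1 was called higher at 15 min in each genotype, and 0 were called at 24 h. At 15 min 1.59% of all probes were called in FR13A and 2.09% in IR24. The leaf sums at 24 h were 19.25 to 20.11 in FR13A, against 19.22 to 20.07 in constitutive FR13A, and 18.97 to 19.85 in IR24, against 19.42 to 20.30 in constitutive IR24. Over 34 leaf probes tested, the median change at 24 h against constitutive was 0.005 in FR13A and -0.35 in IR24. The medians of all probes were -0.00269 and 0.00132. Of these leaf probes, 1 was called higher and 3 lower in FR13A, and 0 higher and 1 lower in IR24. The part of tissue makeup in the changes was not tested.

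Between genotypes, the within-array ratio of FR13A over IR24 answers directly which genotype held more transcript. Probes were designed from cDNA sequences, so a sequence difference between FR13A and IR24 under a probe would also shift its ratio, which was not tested. For AOX1A the log2 ratio was 0.65 and 0.80 on the constitutive arrays, 0.22 and 0.66 at 15 min, and -0.25 and 0.02 at 24 h. For AOX1b the ratio was 0.93 and 1.03 on the constitutive arrays, 0.33 and 0.64 at 15 min, and -0.05 and 0.17 at 24 h. FR13A was thus above IR24 on all 4 arrays of the first pair of times for both genes, and the 24 h arrays lay on either side of equality.

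For HB1 the log2 ratio was 0.48 and 0.89 on the constitutive arrays, 0.51 and 0.06 at 15 min, and -0.06 and -0.04 at 24 h. For Hb2-like the ratio was -0.16 and 0.32 on the constitutive arrays, -0.42 and 0.17 at 15 min, and -0.65 and -0.32 at 24 h. HB1 was higher in FR13A on all 4 arrays before 24 h, whereas Hb2-like had the opposite sign on the 2 arrays of each of those times, with replicate 1, where FR13A was in Cy5, the lower. Replicate 1 had the lower ratio at all 3 times for AOX1A, AOX1b and Hb2-like, and at 2 of 3 times for HB1.

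**Figure D3:**
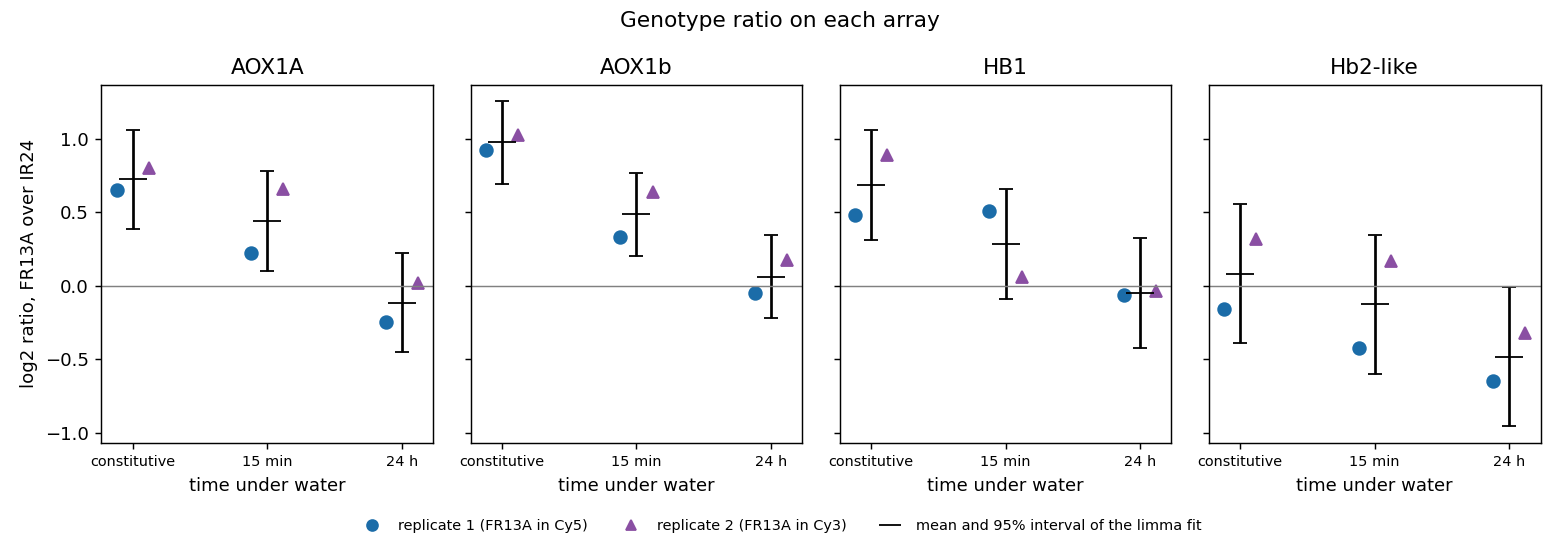
Ratio of FR13A over IR24 on each array, on a log2 scale, at each time under water, with circles for replicate 1 (FR13A in Cy5), triangles for replicate 2 (FR13A in Cy3), and the mean with its 95% interval from the limma fit. The mean ratio is highest in constitutive plants and lowest at 24 h for each of the 4 genes.

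In constitutive plants 2 of the 4 genes were called, both higher in FR13A, where 6.15% of all probes were called and 3.18% were called higher. AOX1b was at 0.98 (SE 0.11, limma adjusted p = 0.00919) and AOX1A at 0.72 (SE 0.14, adjusted p = 0.0417). HB1 was at 0.69 and did not pass (95% interval 0.31 to 1.06, adjusted p = 0.063), and Hb2-like was at 0.08 (95% interval -0.39 to 0.55, adjusted p = 0.902). With global median centring in place of loess neither passed, at 0.77 for AOX1A and 0.98 for AOX1b (adjusted p = 0.29 and 0.147). Neither passed without either constitutive array, where the lone array is assumed to vary like the other times. AOX1A also missed the threshold without either 24 h array and, at 0.56, with scan day as a block (adjusted p = 0.0803).

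The HB1 ratio depended on how background was handled. In the deposited log ratios, to which no offset was added, HB1 stood at 1.22 and 1.48 on the constitutive arrays, 0.98 and 0.40 at 15 min, and -0.20 and -0.52 at 24 h on the log2 scale. The constitutive mean of these was 1.35 (SE 0.19, limma adjusted p = 0.00733), larger than the 0.69 above by over 1.5 times, and it passed. With an offset of 0 in place of 50 the constitutive ratio of HB1 was 1.21 (adjusted p = 0.00991). For AOX1b the constitutive ratio was 1.36 in the deposited ratios and 1.30 with no offset, and both passed.

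**Figure D4:**
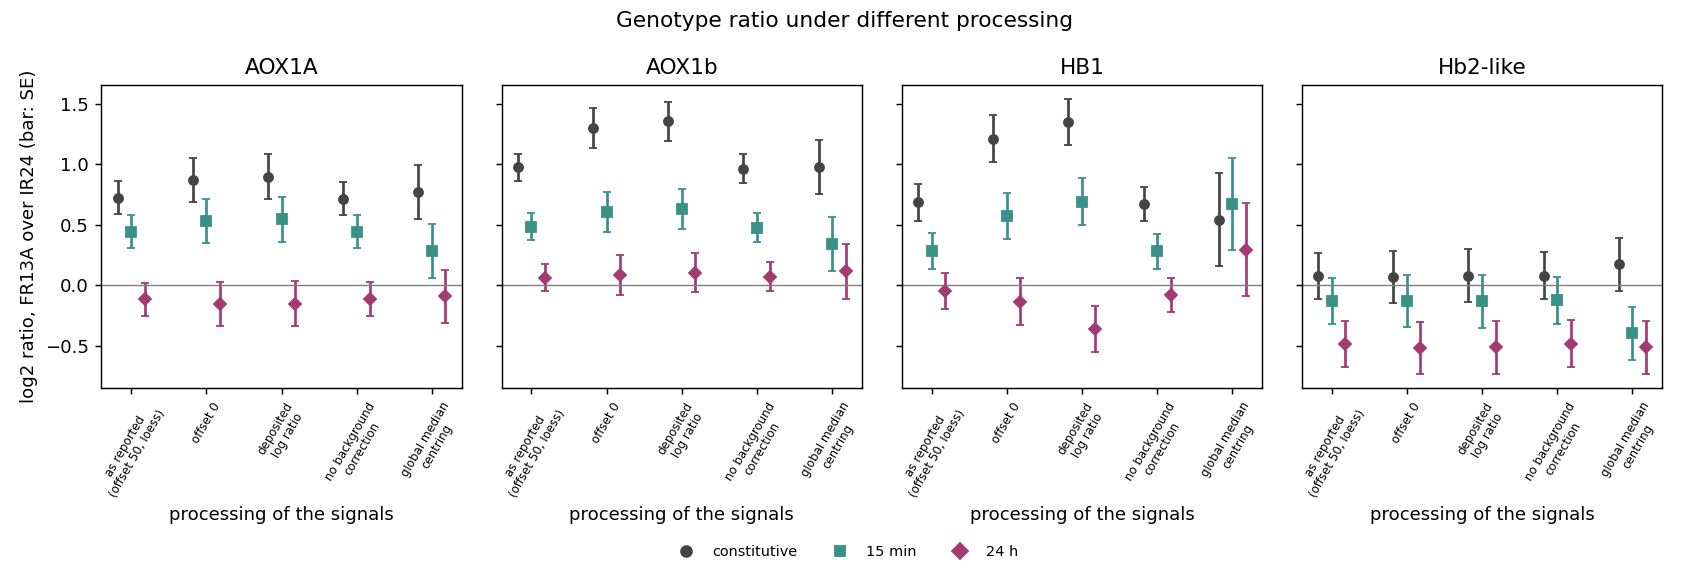
Mean log2 ratio of FR13A over IR24 for each gene at each time, with its SE, under 5 ways of processing the signals along the horizontal axis. The constitutive ratio of HB1 moves between 0.54 and 1.35, while Hb2-like stays near 0 in constitutive plants and below 0 at 24 h.

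At 15 min 0 of 4 genes were called, where 5.34% of all probes were called. AOX1A was at 0.44 (95% interval 0.10 to 0.78, limma adjusted p = 0.156) and AOX1b at 0.49 (95% interval 0.21 to 0.77, adjusted p = 0.0796). HB1 was at 0.29 (95% interval -0.09 to 0.66) and Hb2-like at -0.13 (95% interval -0.60 to 0.35). The unadjusted p-values were 0.0192 for AOX1A, 0.00586 for AOX1b, 0.11 for HB1 and 0.534 for Hb2-like.

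At 24 h 0 of 4 genes were called, where 7.62% of all probes were called. AOX1A was at -0.11 (95% interval -0.45 to 0.22) and AOX1b at 0.06 (95% interval -0.22 to 0.34), intervals that do not reach the mean ratio of either gene in constitutive plants. HB1 was at -0.05 (95% interval -0.42 to 0.33). Hb2-like was at -0.49 (95% interval -0.96 to -0.01, unadjusted p = 0.0461, limma adjusted p = 0.227) and was lower in FR13A on both arrays, with the other unadjusted p-values between 0.434 and 0.76.

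Over all 6 arrays together, AOX1A and AOX1b were called higher in FR13A, 2 of 4 genes, where 20.2% of all probes were called and 10.1% were called higher. AOX1b averaged 0.51 (SE 0.07, limma adjusted p = 0.00499) and was above 0 on 5 of 6 arrays. AOX1A averaged 0.35 (SE 0.08, adjusted p = 0.0311), also above 0 on 5 of 6 arrays, and did not pass without either constitutive array, either 24 h array or 15 min replicate 2. With global median centring AOX1A was at 0.32 (adjusted p = 0.276) and AOX1b at 0.48 (adjusted p = 0.0999), and neither passed. HB1 averaged 0.31 (adjusted p = 0.0612), with 4 of 6 arrays above 0, and Hb2-like -0.18 (adjusted p = 0.332), with 2 of 6 above 0. The shares of all probes above 0 on as many arrays are not given here.

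Whether the time course differed between genotypes was tested as the difference of the within-array ratio between times, later minus earlier. Between constitutive and 24 h the ratio of FR13A over IR24 differed by -0.84 for AOX1A (SE 0.19, unadjusted p = 0.00561, limma adjusted p = 0.339), by -0.91 for AOX1b (SE 0.16, unadjusted p = 0.00153, adjusted p = 0.211), by -0.73 for HB1 (SE 0.21, unadjusted p = 0.015, adjusted p = 0.49) and by -0.57 for Hb2-like (SE 0.27, unadjusted p = 0.0831, adjusted p = 0.79). None passed, in a comparison where 22 probes, 0.108% of all, were called. The 24 h differences, which were larger in FR13A than in IR24 for all 4 genes, are therefore not shown to differ between the genotypes after adjustment over all probes, although the unadjusted 95% intervals of AOX1A (-1.32 to -0.36), AOX1b (-1.31 to -0.52) and HB1 (-1.26 to -0.21) lay below 0. The HB1 value was -0.25 with global median centring (SE 0.54, unadjusted p = 0.659) and -1.71 with the deposited ratios, and the Hb2-like value was -0.10 with scan day as a block. By the size of this difference, AOX1b ranked within the top 2.00%, AOX1A within the top 2.54%, HB1 within the top 3.67% and Hb2-like within the top 6.98% of probes. These ranks take no account of each probe's spread, hold for the processing used here, and are not a test.

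Between constitutive and 15 min the ratio differed by -0.28 for AOX1A, -0.49 for AOX1b, -0.40 for HB1 and -0.21 for Hb2-like, and 0 of 4 were called. In that comparison 0% of all probes were called by limma, with 427 at an unadjusted p under 0.05. Between 15 min and 24 h the ratio differed by -0.56 for AOX1A, -0.42 for AOX1b, -0.33 for HB1 and -0.36 for Hb2-like. Again 0 of 4 were called, where 0.0838% of all probes were, with unadjusted p-values of 0.0297, 0.0403, 0.171 and 0.234 in that gene order.

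Among themselves the 4 genes were unequally alike. Pearson's r of levels over the 12 channels, a description over channels that share arrays, was 0.85 between AOX1A and Hb2-like and 0.75 between AOX1b and Hb2-like. It was 0.54 between HB1 and AOX1A, 0.47 between HB1 and AOX1b and 0.40 between HB1 and Hb2-like. HB1 differed from the others mainly at 15 min, where its replicate 2 arrays were low in both genotypes while those of AOX1A, AOX1b and Hb2-like were as high as or higher than replicate 1. The probes whose levels were most like HB1 were AK071861, described after an Arabidopsis mRNA with no named product (r = 0.912), AK060590, described after the Arabidopsis chloroplast membrane protein ALBINO3 (r = 0.907), and AK065781, described after an unnamed Arabidopsis clone (r = 0.90). Those most like Hb2-like were AK061440, described after an Arabidopsis putative acyl-CoA thioesterase (r = 0.963), AK066018, after an Arabidopsis TOM-like protein (r = 0.957), and AK100765, the rice putative Ca2+/H+ exchanger (r = 0.956).

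Genes of the pathways around these proteins were taken from lists of patterns on the probe descriptions. The other routes by which plant mitochondria pass electrons or dissipate the proton gradient without the full proton-pumping chain, an external rotenone-insensitive NADH dehydrogenase and uncoupling proteins, had 4 probes, of which 0 were called in any of the 13 comparisons. Between 0% and 20.2% of all probes were called in those comparisons, with 9.93% in FR13A and 8.91% in IR24 at 24 h against constitutive. At 24 h against constitutive their differences ranged from -0.28 to 0.02 in FR13A and from -0.37 to 0.45 in IR24. The uncoupling protein probes AK103874, AK061318 and AK071593 were at -0.15, -0.0038 and -0.28 in FR13A and at -0.37, 0.45 and -0.26 in IR24. In the constitutive ratio of FR13A over IR24 these were at 0.19, -0.01 and 0.02.

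The cytochrome route that alternative oxidase bypasses was represented by 6 probes for cytochrome c oxidase and cytochrome c, 4 of which could be fitted across times, and 0 were called in any comparison. Across the same comparisons 0% to 20.2% of all probes were called. COX5c (AK072527), a subunit of cytochrome c oxidase, was at 0.01 at 24 h against constitutive in FR13A and at 0.08 in IR24, and its constitutive ratio of FR13A over IR24 was 0.09. The ratios of AK062787, a smaller nuclear-encoded subunit of rice cytochrome c oxidase by its description, and AK060267, rice cytochrome c, were -0.34 and 0.37 in constitutive plants (limma adjusted p = 0.423 and 0.397). For complex III, the step before cytochrome c, the pattern found 5 probes, 4 of which could be fitted across times. The rice Rieske protein precursor RISP (AK071634) was at -0.09 in FR13A and -0.25 in IR24 at 24 h against constitutive, and AK059519, another rice Rieske protein, was at 0.25 and 0.47, with neither called. There 9.93% of all probes were called in FR13A and 8.91% in IR24.

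The 1 probe of the complex III pattern that was called is AK105616, described after the pea Rieske protein Tic55, which belongs to the protein import machinery of chloroplasts and not to complex III. Its log2 level in FR13A was 12.62 and 12.43 on the constitutive arrays, 12.67 and 12.75 at 15 min, and 14.03 and 14.20 at 24 h. In IR24 it was 11.61 and 12.23, then 12.79 and 12.20, then 14.30 and 14.49. Both genotypes were higher at 24 h on both arrays, by 1.59 in FR13A (SE 0.28, limma adjusted p = 0.0074) and 2.48 in IR24 (SE 0.28, adjusted p = 0.000785).

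Nitrate and nitrite reductases had 6 probes, of which 1 was called lower at 24 h against constitutive in FR13A, and the same 1 in IR24, with list medians of -0.21 and -0.15 against -0.00269 and 0.00132 for all probes. Of all probes, 9.93% were called there in FR13A, 5.77% of them all being lower calls, and 8.91% in IR24. The called probe of the list is AK102363, described after the barley nitrate reductase, which makes nitrite from nitrate. Its log2 level in FR13A was 12.29 and 12.60 on the constitutive arrays, 12.64 and 12.43 at 15 min, and 9.54 and 10.62 at 24 h. In IR24 it was 12.47 and 11.93, then 13.38 and 12.60, then 10.20 and 10.20. The 24 h arrays were far below the earlier ones in both genotypes, by -2.37 in FR13A (SE 0.41, limma adjusted p = 0.00636) and -2.004 in IR24 (SE 0.41, adjusted p = 0.0149). The ferredoxin-nitrite reductase probes, for the enzyme that takes nitrite on to ammonium in plastids, were not called: AK064778 was at 0.65 in FR13A and 0.72 in IR24, and AK061893 at -0.23 and -0.25. No probe of the list was called between genotypes at any time, where 6.15% (constitutive), 5.34% (15 min) and 7.62% (24 h) of all probes were called.

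Monodehydroascorbate reductases and genes described by nitric oxide or nitrosoglutathione metabolism had 7 probes, 6 of them fitted across times. At 24 h against constitutive 0 of 6 were called in either genotype, with medians of -0.33 in FR13A and -0.19 in IR24. There 9.93% of all probes were called in FR13A and 8.91% in IR24. The cytosolic monodehydroascorbate reductase AK071558 was at -0.47 in FR13A and -0.47 in IR24, and AK065585, described after a barley form, at -0.88 (limma adjusted p = 0.0743) and -0.96 (adjusted p = 0.0584). Glutathione-dependent formaldehyde dehydrogenase AK099733, which also breaks down nitrosoglutathione, was measured between genotypes only, with a constitutive ratio of -0.28 (adjusted p = 0.269). The monodehydroascorbate reductase AK099848 fell in IR24 between 15 min and 24 h by 0.51 (log2 difference -0.51, SE 0.14, limma adjusted p = 0.0455), where 9.94% of all probes were called. Over all times, AK102459, a rice monodehydroascorbate reductase, was higher in FR13A at 0.41 (SE 0.09, limma adjusted p = 0.0285), and AK107950, described after an Arabidopsis inhibitor of neuronal nitric oxide synthase, was lower at -0.40 (SE 0.07, limma adjusted p = 0.0116). These were the calls among the 7 probes in a comparison where 20.2% of all probes were called.

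Fermentation, the other route by which plants short of oxygen recycle NADH, had 30 probes for pyruvate decarboxylases and alcohol dehydrogenases, 29 of them fitted across times. At 24 h against constitutive 1 was called higher and 3 lower in FR13A, and 1 higher and 1 lower in IR24, with medians of -0.12 and -0.22, where 9.93% of all probes were called in FR13A and 8.91% in IR24. In FR13A the call higher was AK067720 at 0.97 (limma adjusted p = 0.00506), and the calls lower were the allyl alcohol dehydrogenase-like AK060453 at -2.14 (adjusted p = 0.0022), AK100767, described after the maize tasselseed 2 dehydrogenase, at -1.33 (adjusted p = 0.00354), and the pyruvate decarboxylase AK100501 at -0.81 (adjusted p = 0.0097). The pattern also takes in short-chain and allyl alcohol dehydrogenases that are not fermentation enzymes, and the lower call in IR24 was such a probe, AK060453, at -2.04 (SE 0.30, limma adjusted p = 0.00299). The higher call there was AK067720, described after an Arabidopsis alcohol dehydrogenase, at 1.80 (SE 0.16, adjusted p = 0.000207). Of the brightest probes of the list, pyruvate decarboxylase 2 (AK101594) was at 0.42 in FR13A and -0.44 in IR24, and the short-chain dehydrogenases AK062166 and AK099430 were at -0.31 and 0.35 in FR13A and -0.23 and 0.00432 in IR24, with none called. In constitutive plants 2 of 30 were called higher in FR13A, the pyruvate decarboxylases AK100678 at 1.498 (limma adjusted p = 0.0441) and AK100501 at 0.65 (adjusted p = 0.0241), and 1 lower, the short-chain dehydrogenase AK069762 at -2.95 (adjusted p = 0.00152). There 6.15% of all probes were called and 3.18% were called higher. At 15 min against constitutive 0 of 29 were called in FR13A, where 1.59% of all probes were called. In IR24 1 of 29 was called, higher, where 2.09% of all probes were called.

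**Figure D5:**
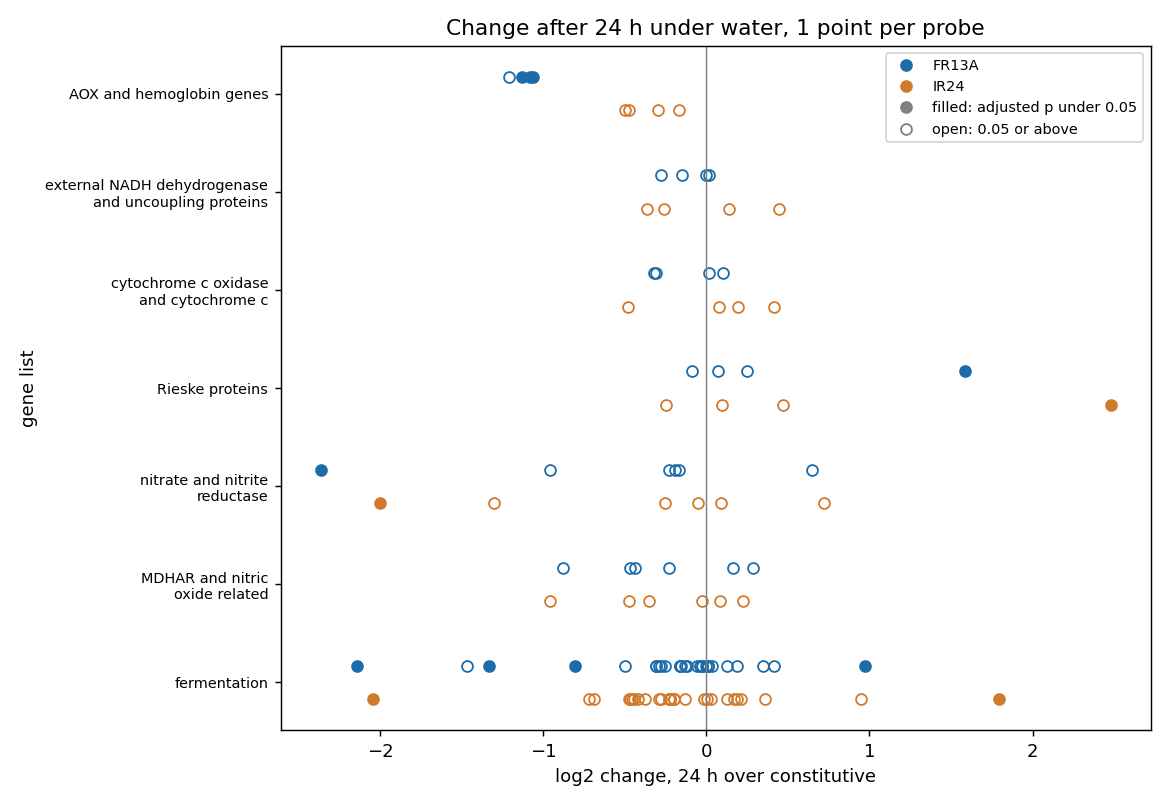
Change at 24 h against constitutive for each probe of the alternative oxidase and hemoglobin genes and of 6 pathway lists, as a log2 difference on the horizontal axis, with FR13A above IR24 in each list and filled points for an adjusted p under 0.05. The 4 alternative oxidase and hemoglobin probes lie between -1.21 and -1.07 in FR13A and between -0.50 and -0.17 in IR24. With no added offset the FR13A values were -1.41 for AOX1A, -1.42 for AOX1b, -2.51 for HB1 and -1.13 for Hb2-like. Filled points of the pathway lists are in the Rieske, nitrate and nitrite reductase and fermentation lists. Of all probes, 9.93% were called in FR13A and 8.91% in IR24.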

How the data were processed

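Per the file headers, the deposited scanner files give, for each spot and dye, the mean intensity, the median intensity of the surrounding background, a processed intensity and the log10 of Cy5 over Cy3. Agilent Feature Extraction 8.1 made them, per the submitters' processing notes. The deposited series table holds log10 ratios that matched the scanner ratios at r of 1.00 in size, with column medians of 0 and FR13A over IR24 as direction on each array.

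Here, intensities were background-corrected (normexp, offset 50) and loess-normalised within arrays with limma 3.58.1 in R 4.3.3, control spots left out. Probes well above background in either genotype on at least 2 arrays were kept (20315). Ratios were turned to FR13A over IR24 and fitted with 1 mean per time. Channel levels, after Aquantile normalisation, were fitted for the 18907 probes with no missing channel (intraspot correlation 0.499). Both fits were run on simulated data with noise independent between probes and arrays. Dye and scan-day effects were not simulated.

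The rule named all 4 genes in every comparison, and from each list the 3 brightest probes and, where at most 3 were called, the called ones. The 4 fermentation probes called at 24 h in FR13A are named beyond that rule, after their values were seen. The 1 called at 15 min in IR24 is counted above but not named. Genes and lists were chosen with earlier results of these data known. Alternatives changed background correction, normalisation, filters, blocks and each array in turn. No array accession matched the RefSeq table (assembly ASM3414082v1) by accession, and no coordinates are given. No probe sequence was used here.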

Additional observations from a re-analysis of the deposited data

How the results depend on the processing

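Of 52 values (4 genes in 13 comparisons), 776 pairs of a value and an alternative were computed, and 753 kept their sign. Of the 12 called values, all 184 pairs kept their sign and 146 kept the call. The falls of AOX1A and AOX1b at 24 h against 15 min in FR13A passed in all 16 alternatives, with adjusted p-values of 0.0017 to 0.0349 and of 0.00111 to 0.0251. With global median centring in place of loess, 0 genes were called over all times and 0 in constitutive plants, against 2 in each with loess. With scan day as a block 1 of 4 was called in constitutive plants. The cause of these losses was not tested.

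Leaving out 1 array at a time gave counts of 1 to 2 genes over all times, 0 to 3 in constitutive plants, 0 to 4 for 24 h against constitutive in FR13A, 2 to 3 for 24 h against 15 min in FR13A, 0 to 2 for 24 h against 15 min in IR24, and 0 in the other comparisons. With fewer arrays these fits have less power, and the intraspot correlation was kept at its value from all arrays. HB1, close to background, was called over all times (0.56) and in constitutive plants (1.35) with the deposited log ratios, and with an offset of 0, an alternative chosen after seeing the data, as were the scanner software's processed signals.

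Replicate numbers mark the dye orientation, and same-numbered arrays were not treated as pairs. Over all probes their ratio deviations correlated at 0.10 (constitutive with 15 min), 0.06 (constitutive with 24 h) and 0.40 (15 min with 24 h). Their level deviations correlated, in the same order, at -0.51, 0.22 and 0.05 in FR13A and at -0.45, 0.24 and -0.03 in IR24. The source of these correlations was not tested. With a replicate block, 1 gene was called at 15 min (AOX1b, 0.49, adjusted p = 0.0469) and 1 at 24 h (Hb2-like, -0.49, adjusted p = 0.0436), where 0 were called without it. It changed no other call of the 4 genes. Dim spots limit what HB1 can show, and 2 arrays per time limit all values.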
